A study of Homo sapiens with 36 samples.

Results

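The genes described are 8 receptor tyrosine kinases that can carry growth signals when EGFR is blocked: MET, MST1R, AXL, IGF1R, FGFR1, FGFR2, FGFR3 and EPHA2. They were chosen by name, though with earlier results of these data known, and are 8 of the 66366 named genes kept from each library. RNA was sequenced in 4 human cell lines of non-small cell lung cancer, with 9 libraries per line and 36 in all. H3255 carries EGFR L858R, H1975 carries L858R with T790M, H820 carries Ex19del (a deletion in exon 19) with T790M, and A549 carries WT (wild-type) EGFR. Each line was kept for 24 h with MinE07 (an aptamer, that is a short folded RNA selected for binding, here to EGFR), with an extended form of C36 (a control aptamer), or with vehicle (DPBS with Mg2+), in 3 libraries each. Both aptamers were given at 3 µM, and all groups were in medium with 1% serum, RPMI except for A549, which had DMEM. Each genotype stands for 1 line, so genotype, lineage and, for A549, medium cannot be told apart. The series record states that the 3 libraries of a group came from independent experiments.

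Receptor tyrosine kinases are membrane proteins that pair up on binding a ligand and phosphorylate each other, which recruits adaptors and starts the RAS-MAP kinase and PI3 kinase pathways. EGFR uses the same adaptors and pathways. In lung cancer with mutant EGFR, a second receptor of this class that feeds them can keep cells growing while EGFR is inhibited, and MET and AXL are the best known of these. MET binds HGF, and MST1R (also called RON) is its closest relative and binds MST1. AXL binds GAS6, a relative of protein S, and IGF1R binds the insulin-like growth factors. FGFR1 to FGFR3 bind fibroblast growth factors, and EPHA2 binds A-type ephrins, which are anchored to neighbouring cells.

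Promoter sequence is shown for the receptor gene that fell most under MinE07, for the most abundant of these receptors in 3 of the 4 lines, and for the 1 receptor called higher in H3255. The RefSeq promoter table (GRCh38.p14) held 7 of the 8 genes. Each line below is the 250 bases before the start site, 5′ to 3′ on the gene's own strand, with capitals marking the GC box GGGCGG and the cyclic AMP response element TGACGTCA, searched on both strands. EPHA2 lies at chr1:16124337-16156087 on the minus strand and its window at chr1:16156070-16156319. MET lies at chr7:116672390-116798386 on the plus strand and its window at chr7:116671946-116672195. FGFR2 lies at chr10:121478334-121598458 on the minus strand and its window at chr10:121598445-121598694, the nearest of its 5 tabulated windows to the 5′ end of the gene in GENCODE release 29.
EPHA2: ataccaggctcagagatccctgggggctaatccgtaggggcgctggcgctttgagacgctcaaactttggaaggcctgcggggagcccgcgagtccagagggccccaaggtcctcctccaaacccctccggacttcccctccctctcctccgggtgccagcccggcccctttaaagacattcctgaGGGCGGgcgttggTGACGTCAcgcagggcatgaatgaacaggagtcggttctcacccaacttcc
MET: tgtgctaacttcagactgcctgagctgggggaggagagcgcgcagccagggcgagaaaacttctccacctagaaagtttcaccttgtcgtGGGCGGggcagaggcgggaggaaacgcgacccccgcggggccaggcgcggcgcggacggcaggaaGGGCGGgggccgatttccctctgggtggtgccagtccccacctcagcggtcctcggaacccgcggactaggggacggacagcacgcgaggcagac
FGFR2: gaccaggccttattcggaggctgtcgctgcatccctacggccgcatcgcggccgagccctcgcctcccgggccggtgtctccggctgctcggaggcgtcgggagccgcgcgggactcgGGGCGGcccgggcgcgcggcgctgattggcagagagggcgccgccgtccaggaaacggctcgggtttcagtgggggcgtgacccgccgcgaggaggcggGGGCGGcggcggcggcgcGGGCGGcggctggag
The response element in EPHA2 begins 51 bases before the start site and is held by 1.65% of the 35116 tabulated windows cut to these 250 bases. EPHA2 also has 1 GC box, which begins 64 bases before the start site and does not overlap the response element. MET has 2 GC boxes and FGFR2 has 3. GC boxes are held by 42.6% of windows, and all 7 receptor genes found in the table have at least 1, up to 8 in FGFR3. The AP-1 motif TGANTCA, held by 6.57% of windows, was found in none of the 7. The ETS motif CCGGAA, held by 14.5%, was found in MST1R only. These matches describe letters in a window and were not tested for binding.

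The labelled cell type was checked against marker genes. All 5 epithelial markers passed a mean of 1 FPKM in each line. FPKM is the number of sequenced fragments scaled by gene length and by library size. Of 5 lung markers, 4 passed for H3255, 2 for H820, 1 for H1975 and 0 for A549, so the alveolar and airway genes that mark lung tissue were under 1 FPKM in A549. Leukocyte and endothelial markers were under 1 FPKM except for CD14, at a mean of 1 FPKM or more in all lines but H3255. Of the fibroblast markers, 3 of 5 passed in H1975, 1 each in H3255 and H820 and 0 in A549. The deposited values give no read counts, and relative depth, computed from the step between low values, ran from 0.590 to 1.39 of the median library. Summed FPKM ran from 362928 to 449811, and the lowest 2 sums were MinE07 libraries of H820, at 362928 and 370219.

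The first comparison asked which of these receptors each line makes without aptamer. MET was the most abundant of the 8 in H1975, H820 and A549, and EPHA2 and FGFR3 were the most abundant in H3255. In vehicle, MET was at 43.2, 44.3 and 44.1 FPKM in H3255. It was at 52.5, 55.5 and 52.4 in H1975, at 124.6, 120.5 and 120.7 in H820, and at 52.2, 51.2 and 50.6 in A549. The H820 libraries stood above all others, 2.36-fold above A549 on the log2(FPKM + 0.5) scale (log2 difference 1.24, SE 0.034, adjusted p 8.20e-13 in limma). H1975 and A549, next to each other in the order, were not called different (log2 difference 0.06, 95% interval −0.02 to 0.13, adjusted p 0.127). H3255 was lowest, 1.17-fold below A549 (adjusted p 3.25e-05). MST1R had another order, with H1975 highest at 7.73, 9.10 and 9.62 FPKM and H820 lowest at 0.849, 0.828 and 0.813. A549 and H3255 lay between them at means of 3.37 and 3.20 and were not called different (log2 difference of H3255 minus A549 −0.06, 95% interval −0.23 to 0.11, adjusted p 0.449).

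AXL, whose protein product is often raised in cells with mesenchymal traits, was lowest in H3255 at 1.45, 1.68 and 1.36 FPKM. It was followed by H1975 at 12.6, 12.7 and 13.1, H820 at 27.3, 28.3 and 28.4, and A549 at 38.0, 37.5 and 37.4. Ranges of the 4 lines did not overlap, and A549 was 19.1-fold above H3255 (adjusted p 1.87e-16 in limma). IGF1R, the receptor of insulin-like growth factors, was highest in A549 at 13.7, 16.8 and 16.4 FPKM. The other lines were at means of 4.09 in H1975, 4.02 in H3255 and 3.09 in H820. H3255 and H1975 were not called different in IGF1R (log2 difference −0.02, 95% interval −0.19 to 0.15, adjusted p 0.822).

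The fibroblast growth factor receptors were divided between lines. FGFR1 was at 44.6, 44.0 and 45.5 FPKM in vehicle-treated A549, at a mean of 11.7 in H820 and 4.44 in H1975. In H3255 it stayed at or under 0.0206 FPKM in all 9 libraries and was listed at 0 in 1 of them, so no fold is given. FGFR3 and FGFR2 were highest in H3255. FGFR3 was there at 56.5, 58.3 and 61.8 FPKM, against means of 2.28 in A549, 0.641 in H1975 and 0.404 in H820. FGFR2 was at 5.44, 6.46 and 5.71 FPKM in H3255, at 0.746 in A549, 0.0687 in H1975 and 0.0112 in H820. FGFR2 reached the filter of a mean of 1 FPKM only through H3255, and its lowest 2 lines, H1975 and H820, are both at levels where the 0.5 added before the logarithm outweighs the value.

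EPHA2, a receptor for ephrins, had the order H3255, A549, H1975, H820. In vehicle it was at 61.6, 64.0 and 64.7 FPKM in H3255 and at 31.9, 32.7 and 32.7 in A549. It was at 21.9, 22.6 and 23.1 in H1975 and at 12.4, 11.99 and 11.9 in H820. The lines did not overlap, and each neighbouring pair was called, with differences of 1.94-fold between H3255 and A549, 1.43-fold between A549 and H1975 and 1.83-fold between H1975 and H820. The antisense gene EPHA2-AS1 was at means of 0.381 to 1.25 FPKM in the 4 vehicle groups. Libraries were made with a stranded kit per the labels, but whether counting used the strand is not stated.

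Most genes differed between lines, so a call between lines says little about these 8. The 6 pairs of lines called 84.3% of 14523 genes (H3255 and H1975), 84.7% (H3255 and H820), 85.7% (H3255 and A549), 82.1% (H1975 and H820), 82.8% (H1975 and A549) and 83.8% (H820 and A549). The receptors called were, in the same order, 7, 8, 7, 8, 7 and 8 of 8. The FGFR2 call between H1975 and H820 (adjusted p 0.0332 in limma) was lost with a pseudocount of 1 (0.155), without the filter (0.0635), and on leaving out H1975 vehicle replicate 1 or 2 or any H820 vehicle library (0.0599 to 0.0952). Scaling matters here: rescaling libraries by medians of ratios moved the median of all genes by 0.14, 0.15 and 0.19 log2 in the comparisons of H1975 with H3255, H820 and A549. Relative to that shift MET was lower in H1975 than in A549, by 0.16 log2 with an adjusted p of 0.000479, which reverses the order given above.

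The order of receptors within a line was also read from FPKM, which is per length. In H3255 EPHA2 and FGFR3 overlapped at the top, followed by MET, and then FGFR2, IGF1R, MST1R and AXL at means of 5.87 to 1.498 FPKM. In H1975 MET made up 50.04% ± 1.05 (SD, n = 3) of the summed FPKM of the 8 receptors, and the neighbours FGFR1 and IGF1R overlapped. MET made up 68.5% ± 0.663 in H820, where the neighbours EPHA2 and FGFR1 overlapped. In A549 MET made up 27.3% ± 0.651, and FGFR1, AXL and EPHA2 followed at means of 44.7, 37.6 and 32.4 FPKM without overlap. The sums of the 8 receptors were near each other in 3 lines, at 180.7 FPKM in H3255, 178.1 in H820 and 188.1 in A549, and 106.9 in H1975. EGFR was at 418.8 FPKM in H3255, 26.1 in H1975, 19.9 in A549 and 7.54 in H820. The sum of the 8 was therefore 0.432 ± 0.00983 of EGFR in H3255, 4.10 ± 0.147 in H1975, 9.47 ± 0.143 in A549 and 23.6 ± 0.674 in H820.

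**Figure D1:**
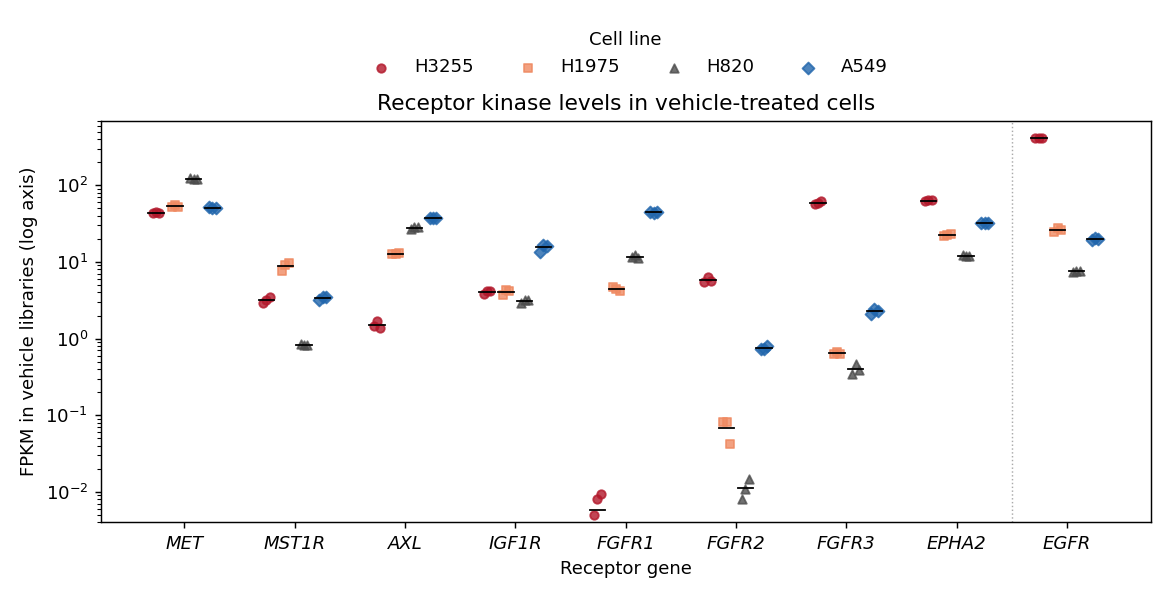
Level of each receptor gene and of EGFR in the 3 vehicle libraries of each line, in FPKM on a log axis. Points are libraries, bars are means, and values under 0.005 are drawn at 0.005. MET reached its highest values in H820, FGFR3 and EPHA2 theirs in H3255, and FGFR1 and AXL theirs in A549.

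The next comparison set the EGFR aptamer against the control aptamer within each line. In H3255 EPHA2, MET, FGFR3 and MST1R fell and FGFR2 rose. EPHA2 was at 41.5, 44.3 and 45.6 FPKM with MinE07, at 71.3, 68.0 and 69.2 with C36, and at 61.6, 64.0 and 64.7 with vehicle. All MinE07 libraries lay below all others. The fall from C36 was 0.66 on the log2 scale, or 1.58-fold (SE 0.039, adjusted p 1.05e-06 in limma). MET was at 36.1, 37.1 and 35.4 with MinE07, at 45.7, 44.1 and 43.5 with C36 and at 43.2, 44.3 and 44.1 with vehicle. It fell by 0.29 (SE 0.031, adjusted p 6.34e-05), again with no overlap. MST1R, the MET relative, fell by 0.36 (SE 0.065, adjusted p 0.00162), from 3.41, 3.30 and 3.06 FPKM with C36 to 2.36, 2.40 and 2.52 with MinE07.

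The fibroblast growth factor receptors of H3255 moved in opposite directions. FGFR3 was at 45.5, 48.8 and 51.6 FPKM with MinE07, at 59.7, 61.4 and 59.3 with C36 and at 56.5, 58.3 and 61.8 with vehicle, a fall from C36 of 0.31 (SE 0.048, adjusted p 0.000710 in limma). FGFR2 was at 7.40, 7.32 and 6.87 with MinE07, at 5.52, 5.30 and 5.48 with C36 and at 5.44, 6.46 and 5.71 with vehicle. It rose by 0.38 (SE 0.057, adjusted p 0.000597), and its MinE07 libraries lay above all others. AXL and IGF1R were not called. AXL differed by 0.08 (95% interval −0.07 to 0.24, adjusted p 0.389) and IGF1R by 0.00 (95% interval −0.12 to 0.12, adjusted p 0.978). FGFR1 was under the filter.

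Of the 7 receptors tested in H3255, 5 were called, 1 higher and 4 lower, where 36.7% of all 13429 genes were called, 16.6% higher and 20% lower. Their median change was −0.29 against −0.01 over all genes. MinE07 against vehicle, which shares the MinE07 libraries, called the same 5 receptors in the same directions, where 38.6% of genes were called, 21.4% higher and 17.2% lower. The changes from vehicle were −0.53 for EPHA2, −0.34 for MST1R, −0.27 for both MET and FGFR3, and 0.28 for FGFR2. EGFR itself fell by 0.31 from C36, from a mean of 422.9 FPKM to 341.3. The summed FPKM of the 8 receptors fell from 191.4, 188.0 and 185.9 with C36 to 138.4, 145.9 and 147.8 with MinE07, with no test made of the sum. In RNA from a whole culture, fewer cells with a transcript and less transcript per cell cannot be told apart. The summed epithelial markers were at 1542 to 1594 FPKM with MinE07 and 1722 to 1761 with C36, and the summed lung markers at 307.5 to 327.7 and 275.7 to 282.4. Their part in the receptor changes was not tested.

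In H1975, which also carries L858R, EPHA2 fell under MinE07 and the other receptors moved by small amounts. EPHA2 was at 19.6, 18.3 and 18.9 FPKM with MinE07, at 23.7, 24.1 and 23.9 with C36 and at 21.9, 22.6 and 23.1 with vehicle. All MinE07 libraries lay below all others, and the fall from C36 was 0.33, or 1.25-fold (SE 0.033, adjusted p 0.000251 in limma). AXL was at 11.8, 12.9 and 11.8 with MinE07, at 13.6, 13.9 and 13.1 with C36 and at 12.6, 12.7 and 13.1 with vehicle. It fell from C36 by 0.15 (adjusted p 0.0348), and its MinE07 libraries overlapped those of vehicle. The AXL call was lost without the filter on low values (adjusted p 0.114), on rescaled values (0.0590), and on leaving out C36 replicate 1 or 2 or MinE07 replicate 1 or 3 (0.0907 to 0.123). FGFR1 was at 3.94, 3.62 and 3.68 with MinE07, at 3.96, 4.39 and 4.20 with C36 and at 4.66, 4.45 and 4.20 with vehicle. Its change from C36 was −0.14 (adjusted p 0.0884), which the fit of all 36 libraries called (0.0112). MET changed by −0.07 (95% interval −0.14 to 0.00, adjusted p 0.170), MST1R by −0.04 and IGF1R by 0.10.

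These were 2 calls among the 6 receptors tested in H1975, both lower, where 19.9% of 14183 genes were called, 8.88% higher and 11.1% lower. For so few genes this count is near the background. Against vehicle 3 of 6 were called, all lower, where 23.7% of genes were called, 10.8% higher and 12.9% lower. EPHA2 fell by 0.24, FGFR1 by 0.22 (adjusted p 0.0153) and MET by 0.13 (adjusted p 0.0154). MET was at 48.4, 48.8 and 48.9 FPKM with MinE07 and at 52.5, 55.5 and 52.4 with vehicle. Without the filter on low values the MET and FGFR1 calls were lost, at adjusted p 0.0510 and 0.0586. They were also lost without vehicle replicate 2 for MET (0.0521) and without MinE07 replicate 2 (0.0535) or 3 (0.0512) for FGFR1. FGFR3, under the filter in H1975, was at 0.872, 0.786 and 0.743 FPKM with MinE07 and at 0.519, 0.749 and 0.613 with C36. The lowest MinE07 library lay below the highest C36 library, and without the filter the difference of 0.21 was not called (adjusted p 0.227). Summed fibroblast markers, which include COL1A1 and PDGFRB, moved in H1975 as well, at 16.1 to 17.1 FPKM with MinE07 and 12.1 to 13.6 with C36. Summed lung markers were at 22.4 to 23.6 with MinE07, 17.2 to 19.1 with C36 and 19.2 to 21.4 with vehicle, with MinE07 above all others. This lung sum is nearly all NKX2-1, at 16.4 to 23.1 FPKM over the libraries of H1975. The part of these markers in these results was not tested.

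**Figure D2:**
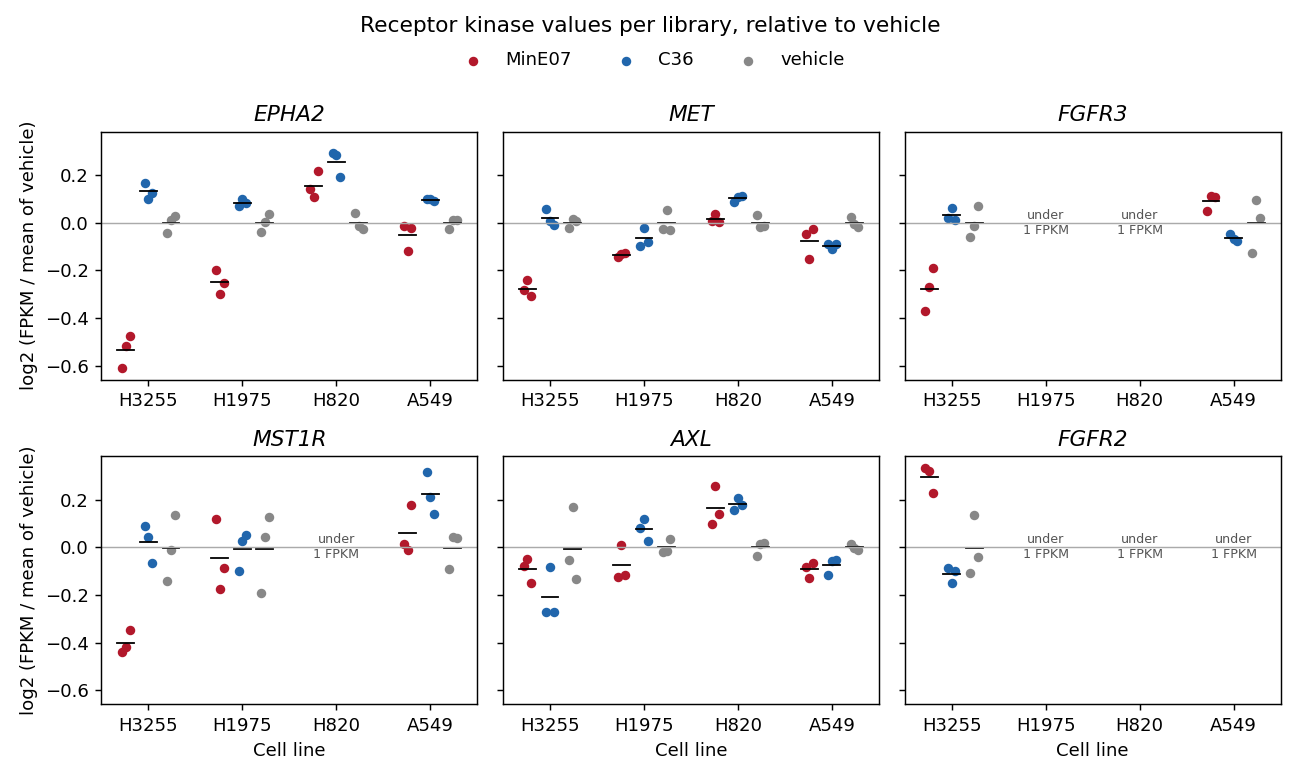
Receptor gene values per library as log2 of FPKM over the vehicle mean of the same line, for 6 receptors in the 4 lines. Points are libraries coloured by treatment, bars are means, and lines where a receptor has a mean under 1 FPKM are left blank. The MinE07 libraries of EPHA2 lie below the vehicle libraries in H3255 and H1975 and above them in H820.

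In H820 the receptor levels with MinE07 and C36 were not called different. MET, the most abundant, was at 122.6, 125.0 and 122.3 FPKM with MinE07, at 129.5, 131.5 and 131.8 with C36 and at 124.6, 120.5 and 120.7 with vehicle. MinE07 libraries lay below all C36 libraries by a small margin, a change of −0.09 (95% interval −0.14 to −0.03, unadjusted p 0.00413, adjusted p 0.308 in limma). EPHA2 changed by −0.10 (95% interval −0.18 to −0.01, adjusted p 0.442), and AXL, IGF1R and FGFR1 by −0.01, −0.01 and −0.06. None of the 5 receptors tested was called, 2 of them had an unadjusted p under 0.05, and 0.0364% of 13753 genes were called.

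C36 itself moved receptors in H820. Against vehicle EPHA2 rose by 0.25 (adjusted p 0.0110 in limma), AXL by 0.18 (0.0427) and MET by 0.10 (0.0488), which made 3 of 5 where 2.85% of genes were called. EPHA2 was at 14.8, 14.8 and 13.8 FPKM with C36 and at 12.4, 11.99 and 11.9 with vehicle. AXL was at 31.2, 32.2 and 31.6 with C36, at 30.0, 33.5 and 30.8 with MinE07, and at 27.3, 28.3 and 28.4 with vehicle, so libraries of both aptamers lay above vehicle. Without the filter on low values no call was left (adjusted p 0.0693, 0.181 and 0.119 for EPHA2, AXL and MET). The EPHA2 call was lost without C36 replicate 1 (0.0576). The AXL call was lost on leaving out any C36 or vehicle library or MinE07 replicate 3, and the MET call on leaving out any of the 9 libraries, on rescaled values (0.0744) and when replicate numbers entered the fit as a block (0.120). MinE07 against vehicle called 0 of 5, where 3.02% of genes were called and 3 receptors had an unadjusted p under 0.05. EPHA2 then differed by 0.15 (adjusted p 0.0691), AXL by 0.16 (0.0552) and FGFR1 by −0.13 (0.120). The fit of all 36 libraries called EPHA2 (0.0120) and AXL (0.0438) in that comparison. Marker sums of H820 also moved without overlap between C36 and vehicle. Fibroblast markers were at 40.9 to 44.7 FPKM with C36 and 36.3 to 39.2 with vehicle, and lung markers at 32.1 to 33.6 and 37.2 to 39.3. Each sum is mostly 1 gene: LUM (35.4 to 45.8 FPKM over the 9 libraries) for the fibroblast markers and NKX2-1 (28.3 to 36.1) for the lung markers. The part of these markers in the receptor changes was not tested.

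In A549, with WT EGFR, no receptor was called in any comparison. MinE07 against C36 called 0 of 7 receptors and 0% of 13425 genes, with 3 receptors at an unadjusted p under 0.05. EPHA2 was at 32.1, 29.9 and 32.0 FPKM with MinE07, at 34.8, 34.8 and 34.6 with C36 and at 31.9, 32.7 and 32.7 with vehicle. Its change from C36 was −0.15 (95% interval −0.23 to −0.06, adjusted p 0.302 in limma), and the fit of all 36 libraries called it (adjusted p 0.0333). MET differed by 0.02 (95% interval −0.07 to 0.11), AXL by −0.02 (−0.09 to 0.06) and FGFR1 by 0.01 (−0.08 to 0.09). MinE07 against vehicle called 0 of 7, with 1 at an unadjusted p under 0.05, where 0.216% of genes were called. C36 against vehicle called 0 of 7, with 3 at an unadjusted p under 0.05, where 6% of genes were called. MST1R then differed by 0.20 (adjusted p 0.0939) and MET by −0.10 (adjusted p 0.178). MET was called there in the 36-library fit (0.0238).

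For EPHA2 the C36 libraries lay above the vehicle libraries of their line in all 4 lines, a pattern picked out after its values were seen. How many of all genes share this pattern was not counted. The tests below use the same values that picked it out. For H3255 the difference was 0.13, for H1975 0.08, for H820 0.25 and for A549 0.10, with unadjusted p of 0.00715, 0.0308, 7.22e-05 and 0.0258. After adjustment over all genes H820 alone was called, at 0.0110, with 0.165, 0.290 and 0.150 in H3255, H1975 and A549. C36 against vehicle called 0 of 7 receptors in H3255 and 0 of 6 in H1975, with 1 receptor in each, EPHA2, at an unadjusted p under 0.05. The shares of all genes called were 0.305% and 0.233%. The fit of all 36 libraries called EPHA2 in H3255 too (0.0428). The fall of EPHA2 from vehicle in H3255 (0.53) and H1975 (0.24) was accordingly smaller than its fall from C36 (0.66 and 0.33).

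**Figure D3:**
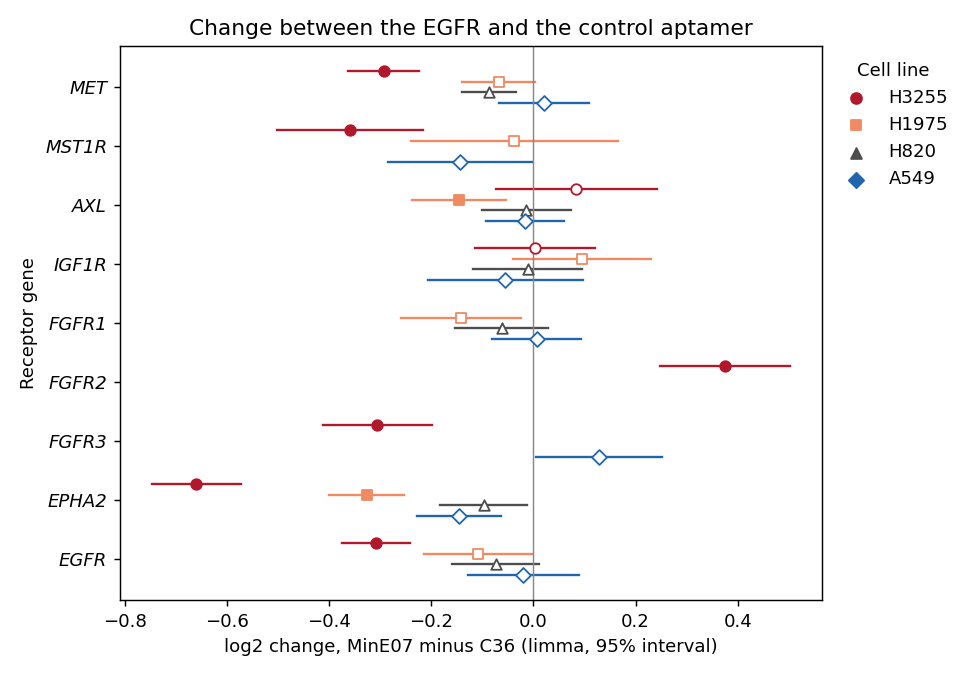
Change of each receptor gene and of EGFR between MinE07 and C36 in each line, as log2 difference with its 95% interval from limma. Filled symbols passed an adjusted p under 0.05 over all genes of the line, open symbols did not, and a receptor under the filter in a line has no symbol. EPHA2 in H3255 has the lowest value, −0.66, and FGFR2 in H3255 the highest, 0.38.

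Whether the response to MinE07 differed between lines was tested directly, as the difference of the MinE07 minus C36 changes in 1 fit of all 36 libraries. EPHA2 fell more in H3255 than in H1975 (by 0.33, SE 0.050, adjusted p 1.60e-05 in limma), than in H820 (0.56, 1.89e-09) and than in A549 (0.51, 7.64e-09). It also fell more in H1975 than in H820 (0.23, 0.00433) and than in A549 (0.18, 0.0164), and the last call was lost without H1975 MinE07 replicate 2 (0.0539). H820 and A549 differed by 0.05 (95% interval −0.05 to 0.15, adjusted p 0.763). The mean of the 2 L858R lines was below that of the other lines by 0.37 (SE 0.036, adjusted p 9.07e-09). This SE and p measure spread between libraries within groups, not between lines, and each side has only 2 lines. MET fell more in H3255 than in H1975, H820 and A549, by 0.23, 0.21 and 0.31 (adjusted p 0.000198, 0.000526 and 1.21e-06). The mean of the L858R lines was below the others by 0.15 in MET (0.000368, again without spread between lines). H1975 did not differ in MET from H820 (0.02, 95% interval −0.06 to 0.10) or A549 (−0.09, adjusted p 0.165) by a called amount. The MET difference between H1975 and A549 was called on leaving out A549 MinE07 replicate 2 (−0.13, adjusted p 0.0306 in limma).

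For FGFR2 and FGFR3 the test between lines is limited by low levels outside H3255. FGFR2 had means of 0.0645, 0.00584 and 0.737 FPKM over the 9 libraries of H1975, H820 and A549, and FGFR3 had means of 0.689, 0.421 and 2.30. At levels under 1 FPKM the added 0.5 limits how far a gene can move on this scale. The FGFR2 values largely repeat its change within H3255, as it changed by −0.04, 0.01 and 0.05 in H1975, H820 and A549. FGFR3 fell by 0.31 in H3255, but in this fit it rose by 0.21 in H1975 (adjusted p 0.0204 in limma). It differed by −0.01 in H820 and 0.13 in A549 (0.345), so its values also hold changes of the other lines. For FGFR2 the values for H3255 minus H1975, H820 and A549 were 0.42, 0.37 and 0.32, and for FGFR3 they were −0.52, −0.30 and −0.43. Of these 6, FGFR3 in H3255 against A549 (adjusted p 0.000796 in limma) is the 1 call where both lines were above 1 FPKM. With 0.1 added in place of 0.5, FGFR2 was no longer called against H820 (adjusted p 0.0911) and A549 (0.111), nor FGFR3 against H820 (0.153). The FGFR3 difference from H820 was also lost without the filter (0.0599) and on leaving out H3255 C36 replicate 2, H3255 MinE07 replicate 1, H820 C36 replicate 3 or H820 MinE07 replicate 1 (0.0501 to 0.0788). MST1R fell more in H3255 than in H1975 (0.32, adjusted p 0.0400) and H820 (0.31, 0.0387). Each call was lost without the filter (0.0955 and 0.103), on leaving out any of 8 libraries, and when replicate numbers entered the fit as a block (0.0888 and 0.0839). The MST1R call against H820 was also lost with 0.1 added (0.0557). AXL differed by 0.23 between H3255 and H1975 (adjusted p 0.0164), a call lost without H3255 C36 replicate 1 (0.0502) or 3 (0.0504). IGF1R and FGFR1 were called in none of the 7 tests. In H3255, however, FGFR1 stayed at or under 0.0206 FPKM, where it can move little on this scale. The FGFR1 difference between H1975 and A549 was called on leaving out H1975 C36 replicate 1 (adjusted p 0.0462) or H1975 MinE07 replicate 1 (0.0466).

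The receptor counts of these tests are read against the share of all 14572 genes called. They were 6 of 8 for H3255 and H1975 (15.2% of genes), 5 of 8 for H3255 and H820 (18.9%), 4 of 8 for H3255 and A549 (25.2%), 1 of 8 for H1975 and H820 (7.32%), 1 of 8 for H1975 and A549 (12.6%), 0 of 8 for H820 and A549 (0.323%, with MET at an unadjusted p of 0.0137) and 2 of 8 for the L858R lines against the others (24.5%). These counts include receptors under 1 FPKM in 1 of the lines compared. Counted over genes with a mean of at least 1 FPKM in both lines, a choice made after seeing the data, they were 4 of 5 for H3255 and H1975 (14.6% of genes), 2 of 4 for H3255 and H820 (19.9%) and 3 of 6 for H3255 and A549 (26.6%). They were 1 of 5 for H1975 and H820 (7.53%), 1 of 6 for H1975 and A549 (12.4%), 0 of 5 for H820 and A549 (0.294%) and, over genes past 1 FPKM in all 4 lines, 2 of 4 for the L858R lines against the others (25.8%).

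Ligand genes were low for most receptors. HGF, the MET ligand, was listed at 0 in all 9 libraries of H3255 and reached at most 0.0900 FPKM, in A549. MST1, the MST1R ligand, reached at most 0.517. GAS6, the AXL ligand, lay between 0.4997 and 1.56 FPKM over all libraries. PROS1, which encodes protein S, was at means of 2.96 in H3255, 5.96 in H820, 13.5 in H1975 and 13.9 in A549. IGF1 stayed at or under 0.218 FPKM and IGF2 under 1.58. The highest fibroblast growth factor was FGF2 in A549, the line with most FGFR1, at a mean of 7.61, and it was at 1.67 in H820 and at or under 0.0294 in the other lines. Among the A-type ephrins EFNA1 was the most abundant in every line, with a mean of 46.8 FPKM for H3255, 18.9 for H1975, 17.2 for H820 and 6.33 for A549. EFNA4 came next in the first 3 of these lines, and EFNA5 came next in A549, at 5.33.

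EFNA1 moved against EPHA2 in H3255. It was at 53.3, 55.1 and 58.7 FPKM with MinE07, at 40.8, 41.7 and 41.0 with C36 and at 42.3, 42.8 and 45.2 with vehicle. The MinE07 libraries lay above all others, and the rise from C36 was 0.43 (SE 0.040, adjusted p 2.56e-05 in limma). Its response in H3255 exceeded that in H1975 by 0.29 (adjusted p 0.00792), that in H820 by 0.26 (0.0131) and that in A549 by 0.55 (2.33e-06). In A549 EFNA1 was at 6.57, 6.83 and 6.45 with MinE07 and 6.85, 7.23 and 7.73 with C36, and lower with vehicle at 5.68, 5.15 and 4.54, where C36 was called higher by 0.47 (adjusted p 0.00906). EPHA2 was not called in that comparison. PROS1 rose in H1975, from 11.9, 11.9 and 12.5 FPKM with C36 to 16.2, 14.3 and 15.4 with MinE07 (0.32, adjusted p 0.00330).

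**Figure D4:**
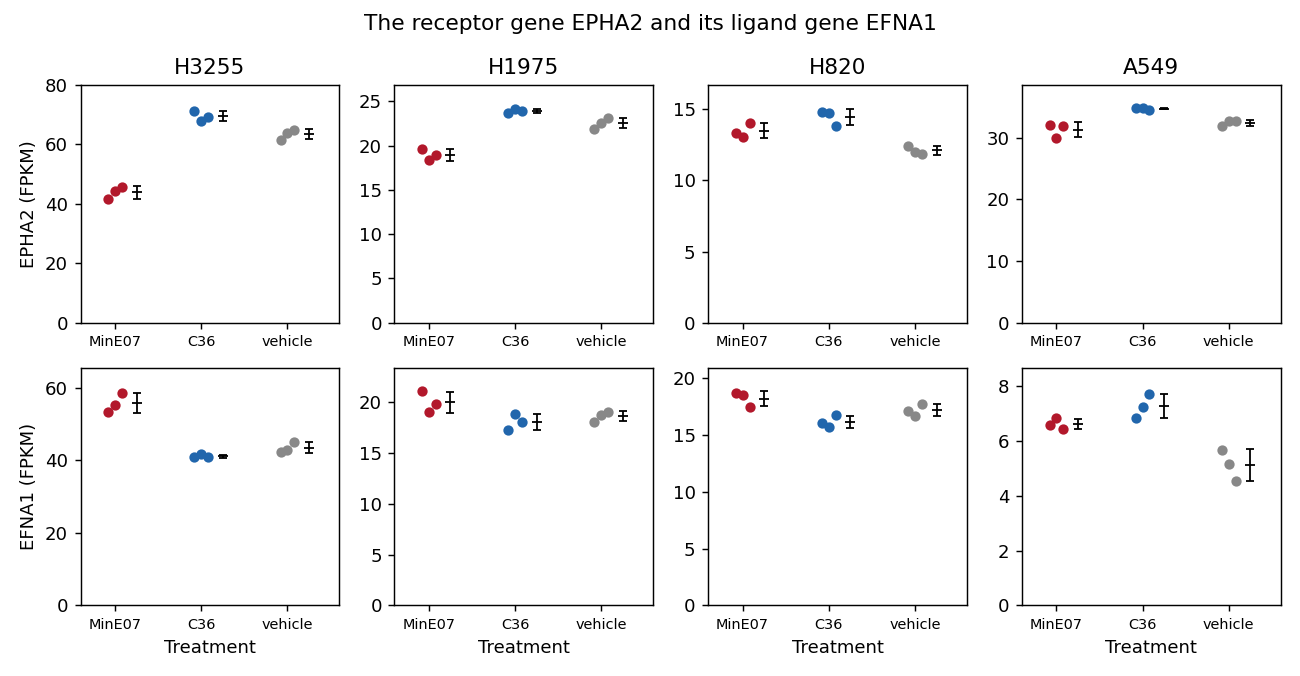
FPKM of EPHA2 (upper row) and of its ligand gene EFNA1 (lower row) in each library of the 4 lines, by treatment. Points are libraries, and the bar beside them is the mean ± SD of 3 libraries. In H3255 EPHA2 is lower and EFNA1 higher with MinE07 than in all other libraries of that line.

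Other genes of these pathways were counted in 4 lists. In H3255 MinE07 against C36 called 3 of 6 tested ligands (1 higher, 2 lower), 6 of 19 other receptor kinases (2 and 4), 15 of 24 adaptors (8 and 7) and 15 of 29 genes that process ligands or receptors (6 and 9). Of all genes tested in H3255, 36.7% were called, 16.6% higher and 20% lower. Median changes of the 4 lists were 0.02, −0.01, −0.06 and −0.03, against −0.01 over all genes. In H1975 the calls were 1 of 4 (higher), 3 of 15 (all higher), 2 of 20 (both higher) and 12 of 28 (6 and 6). Of all genes, 19.9% were called there, 8.88% higher and 11.1% lower. In H820 and A549 MinE07 against C36 called no gene of the 4 lists, where 0.0364% and 0% of all genes were called. Ephrin receptors related to EPHA2 moved both ways in H3255: EPHA7 rose by 0.92 to a mean of 4.07 FPKM and EPHB2 by 0.17, and EPHA4 fell by 0.44. EFNA5 and EFNA4 fell by 0.24 and 0.20 from C36 in H3255. EFNA4 differed from vehicle by −0.05 (adjusted p 0.365), with means of 18.8 FPKM with MinE07, 19.5 with vehicle and 21.6 with C36. EFNA5 fell from vehicle by 0.28 (0.00706). The EFNA5 call against C36 was lost without the filter (adjusted p 0.0694) and without C36 replicate 1 or MinE07 replicate 1. ROS1, another receptor kinase, fell by 0.25 there.

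In H3255 the adaptors with the 2 largest called changes in each direction were IRS1, IRS2, GRB10 and GRB14. IRS1 and IRS2, the docking proteins of the insulin and IGF1 receptors, fell by 0.48 and 0.45 from C36 (adjusted p 5.53e-05 and 0.000401 in limma). From vehicle they fell by 0.51 and 0.26 (3.57e-05 and 0.00994), and the smaller value for IRS2 goes with a C36 mean of 1.75 FPKM above the vehicle mean of 1.47. GRB10 and GRB14, adaptors that dampen these receptors, rose by 0.58 and 0.47 (7.71e-06 and 6.54e-05). GRB10 went from a mean of 6.68 FPKM with C36 to 10.2 with MinE07. IGFBP4, which binds insulin-like growth factors, fell by 0.68 in H1975, from 21.4 FPKM to 13.2 (7.42e-05). Among genes that act on MET or its ligand, PLAU, a protease that can cut HGF, fell by 1.53 in H3255, from 8.99 FPKM to 2.78, and by 0.26 in H1975, where its fall from vehicle was 0.13. HPN, another protease of that kind, rose by 0.47 in H3255. The phosphatase PTPRF rose by 0.30 in H3255, and CBL, a ubiquitin ligase that removes active receptors, fell by 0.27. In H1975 PDGFRB rose by 0.38 and DDR1 by 0.23. CBLB, PTPRJ, GAB1 and PIK3R2 rose there by 0.30, 0.23, 0.20 and 0.13, calls that were lost without the filter (adjusted p 0.0625, 0.0953, 0.0752 and 0.0809). GAB1 was also lost when replicate numbers entered the fit as a block (0.0650), which left 1 adaptor called in H1975. DDR1 is listed with further copies that were kept as separate genes.

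For each receptor, the 2 genes with the highest Pearson r to it over the 12 group means, among 14572 genes, were taken as a description with no test. All 12 points share 4 lines, so these values mostly describe levels between lines. MET was closest to YWHAZ (r 0.997) and INTS8 (0.993). MST1R was closest to ZNF584 (0.994) and MIF (0.992), and AXL to PRRG1 (0.998) and DMAC1 (0.997). IGF1R was closest to TLE4 (0.998) and RAB10 (0.997), and FGFR1 to MAP3K14 (0.998) and DNAJC22 (0.997). FGFR2 was closest to CEACAM5 (0.996) and CD55 (0.996), and FGFR3 to FOXC1 (0.999) and RETREG1 (0.998). EPHA2 was closest to IER3 (0.997), whose rank order followed it too (Spearman rho 0.993), and to DENND4B (0.987).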

How the data were processed

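The authors deposited 1 table per library with FPKM per gene, and per the submitters' processing notes HISAT2, Cuffdiff, GRCh38.p12 and hg38 were used. Per the labels, libraries were poly-A selected, stranded and read as pairs of 100 bases. Each table has 68271 entries; 1874 without a gene name and 31 with repeated names were left out. The receptors and the 4 gene lists were chosen with earlier results of these data known. All 8 receptors and, per list, line and direction, up to 2 called genes with the largest change between MinE07 and C36 were named.

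Values were analysed as log2(FPKM + 0.5) for genes with a mean of at least 1 FPKM in a fit, with limma 3.58.1 in R 4.3.3 (trend, robust). Treatments were compared within the 9 libraries of a line, levels within the 12 vehicle libraries, and responses between lines in 1 fit of all 36. Tests were two-sided, with a call at a Benjamini-Hochberg adjusted p under 0.05 over all genes of the fit. Fold changes are on the log2(FPKM + 0.5) scale, which understates changes of low genes. The fitting code was tested on simulated data. Read counts are unknown, so no counting intervals or floors are given. No label says that a replicate number marks a shared experiment, and deviations of same-numbered libraries did not correlate throughout (r from −0.16 to 0.25). Alternatives were pseudocounts of 0.1 and 1, no filter, rescaling by medians of ratios, a replicate block, the 36-library fit for treatments, leaving out each library and, added after seeing the data, counting responses only over genes at a mean of 1 FPKM in every line compared.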

Additional observations from a re-analysis of the deposited data

Results flagged for a closer look

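The response to MinE07 over C36 differed between lines by a direct test for 19 combinations of receptor and lines out of 56, all against an adjusted p of 0.05 over all genes. The share of all genes called ran from 0.323% (H820 and A549) to 25.2% (H3255 and A549). These combinations are not separate results, as the 7 tests reuse the responses of the same 4 lines. In 6 of the 19 the receptor had a mean under 1 FPKM in 1 of the lines, which limits how far it can move there: FGFR2 against all 3 other lines, FGFR3 against H1975 and H820, and MST1R against H820. Both MST1R calls were also lost without the filter on low values (adjusted p 0.0955 and 0.103 in limma), with a replicate block (0.0888 and 0.0839) and on leaving out any of 8 libraries. The MST1R call against H820 was lost with a pseudocount of 0.1 as well (0.0557). Differences are log2 values of the named line minus the other. Between H3255 and H1975 they were −0.23 for MET, 0.23 for AXL, 0.42 for FGFR2, −0.52 for FGFR3, −0.33 for EPHA2 and −0.32 for MST1R. Between H3255 and H820 they were −0.21 for MET, 0.37 for FGFR2, −0.30 for FGFR3, −0.56 for EPHA2 and −0.31 for MST1R. Between H3255 and A549 they were −0.31 for MET, 0.32 for FGFR2, −0.43 for FGFR3 and −0.51 for EPHA2. EPHA2 differed by −0.23 between H1975 and H820 and by −0.18 between H1975 and A549. The L858R lines differed from the other lines by −0.15 for MET and −0.37 for EPHA2, in a test that does not measure spread between lines. No group had enough libraries for a test of single libraries that stand apart.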

How the results depend on the processing

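Counts of receptors called kept within 1.5 times their main value in most settings, with these exceptions. With 36 libraries in 1 fit, C36 against vehicle in H3255 called 1 receptor (EPHA2), where 369 of 14572 genes were called. MinE07 against C36 in H1975 called 4 in place of 2 (FGFR1, and FGFR3 at under 1 FPKM there), where 3260 genes were called. MinE07 against vehicle in H820 called 2, where 581 genes were called. In A549 MinE07 against C36 called 1 (EPHA2), where 230 genes were called, and C36 against vehicle 1 (MET), where 2260 were called. Shares of all genes called are not given here for the settings that follow. Without the filter the counts became 1 in place of 2 and 1 in place of 3 for MinE07 against C36 and against vehicle in H1975. They became 0 in place of 3 for C36 against vehicle in H820, and 3 in place of 5 for the response of H3255 against H820. The last was 2 with a pseudocount of 0.1 and 2 over receptors with a mean of at least 1 FPKM in both lines, a setting added after seeing the data. Rescaling gave 1 in place of 2 for MinE07 against C36 in H1975 and turned the MET difference between vehicle-treated H1975 and A549 to −0.158. Leaving out 1 library gave 1 to 2 and 2 to 3 for MinE07 against C36 and against vehicle in H1975, 0 to 1 and 0 to 2 for MinE07 and C36 against vehicle in H820, and 7 to 8 for levels in H1975 against H820. For responses it gave 4 to 6 (H3255 and H1975), 3 to 5 (H3255 and H820), 0 to 2 (H1975 and A549) and 2 to 3 (L858R lines). The 5 calls in H3255 held in every setting tried. With the replicate block, MinE07 against C36 called 5 receptors in H3255 and 2 in H1975, as without it. Where 1 library was left out, the fit was rerun on the remaining libraries, with the spread pooled over all groups. The causes of these shifts were not tested. Depth is known only in relative terms, so receptors near 0, such as FGFR1 in H3255 and FGFR2 in H820, cannot be called absent.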
